A study of Homo sapiens with 12 samples.

Results

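The insulin-like growth factor (IGF) binding proteins *IGFBP1* to *IGFBP7*, the receptors *IGF1R* and *IGF2R* and the receptor substrate *IRS1* were followed in HLE cells, a human hepatocellular carcinoma line. These 10 genes, of 26258 identifiers in the table, were chosen by name, and the set was chosen because *IGFBP3* was far lower after loss of YAP and TAZ. Every comparison that holds YAP/TAZ-depleted libraries is therefore given as a description without a test. The cells were transfected with a control siRNA (siCtrl), siRNAs against both YAP and TAZ (siY/T) or siRNA against ATF4 (siATF4), and were then given either DMSO, the vehicle, or 5 µM of the multikinase inhibitor Sorafenib (Srf). All groups are of the same line, no time of treatment is given in the labels, and depletion was transient and partial. Poly(A) RNA was sequenced from 12 libraries, 2 for each of the 6 groups.

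IGF1 and IGF2 are secreted ligands that activate the receptor tyrosine kinase IGF1R, from which adaptors such as IRS1 pass the signal to phosphatidylinositol 3-kinase and AKT. IGF2R, the cation-independent mannose 6-phosphate receptor, takes up IGF2 for breakdown in lysosomes. The IGF binding proteins are secreted carriers that hold the ligands away from the receptor and prolong their half-life, and proteases such as PAPPA release the ligands again. Liver is the main source of circulating IGF1. YAP and TAZ are coactivators of the Hippo pathway that bind DNA through TEAD factors, and ATF4 is the transcription factor of the integrated stress response.

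Reads on genes numbered 41408348 in the shallowest and 53619732 in the deepest library, and values are CPM, the reads of a gene scaled to a common total of reads on genes. The siRNA targets were lower in their own libraries. *YAP1* was at 46.6 to 57.7 CPM in siY/T and 236 to 280 CPM in all other libraries, *WWTR1*, which codes for TAZ, at 49.3 to 68.6 against 104 to 173 CPM, and *ATF4* at 84.5 to 101 CPM in siATF4 and 197 to 492 CPM elsewhere. Markers of hepatocytes were mostly absent, with 2 of 11 (*SERPINA1* and *FGB*) high enough to be tested and *APOB* at 0 in all libraries, while 6 of 6 mesenchymal markers were tested. Among the other markers, 3 of 5 epithelial, 1 of 3 leukocyte and 0 of 3 endothelial genes were tested. The summed epithelial markers, nearly all *KRT8* and *KRT18*, were at 978 to 1339 CPM in siY/T, 2140 to 2792 CPM in siATF4 and 3172 to 3333 CPM in siCtrl libraries. *CDH1*, the other epithelial marker tested, went the opposite way in DMSO, at 1.89 and 2.39 CPM in siY/T against 0.653 and 0.954 CPM in siCtrl cells. With siATF4, *KRT8* and *CDH1* were lower in both treatments, but *KRT18* was not. In DMSO *KRT18* was at 1011 and 1041 CPM in siATF4 against 1047 and 1017 CPM in siCtrl cells. In Sorafenib it was higher, at 1015 and 1089 against 707 and 735 CPM. The summed hepatocyte markers, nearly all *FGB*, were at 64.8 to 72.5 CPM in siATF4 against 174 to 431 CPM in siCtrl libraries. *SERPINA1* was lower in siATF4 too, at 0.0758 and 0.150 against 0.504 and 0.529 CPM in siCtrl cells in Sorafenib. With siY/T in DMSO these markers went opposite ways. *FGB* was at 225 and 254 against 368 and 431 CPM in siCtrl cells, and *SERPINA1* at 2.32 and 1.64 against 0.112 and 0.266 CPM. The leukocyte list, carried by *CD68*, a lysosomal membrane protein, was at 61.3 to 75.0 CPM in siATF4 against 19.8 to 23.3 CPM in siCtrl libraries, with *CD3E* at 0 in all. The mesenchymal markers did not move together with siATF4 in DMSO. *COL1A1* was at 6.92 and 5.49 against 27.6 and 29.8 CPM in siCtrl cells, and *FN1* at 18.8 and 22.2 against 53.4 and 53.0 CPM. *ZEB1* was higher, at 26.1 and 27.0 against 15.0 and 16.1 CPM, and *VIM*, *CDH2* and *SPARC* differed less. The part of these shifts in the results was not tested.

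Of the 10 genes, 7 reached 1 CPM in at least 2 libraries and were tested among 13515 genes. *IGFBP1*, *IGFBP2* and *IGFBP5* were not detectable at this depth. They had 2, 2 and 1 reads over all 12 libraries, never more than 1 in a library, and a count of 0 allows 3 reads, which is 0.0559 to 0.0724 CPM. *IGFBP1* lies 18584 bases from *IGFBP3* on chromosome 7 and *IGFBP2* lies 7668 bases from *IGFBP5* on chromosome 2 (GRCh37), so in the first pair an unread gene is next to one of the most abundant members. The binding proteins measured were thus *IGFBP3*, *IGFBP4*, *IGFBP6* and *IGFBP7*, of which IGFBP7 binds IGFs with low affinity and IGFBP6 prefers IGF2.

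Per kilobase of transcript, which allows levels of different genes to be compared, *IGFBP3* was the highest member in siCtrl DMSO cells with 200.1 ± 2.8 CPM per kb (SD, n = 2). *IGFBP4* followed with 171 ± 0.98 and *IGFBP7* with 73.2 ± 2.0 CPM per kb. *IGFBP6* (13.3 ± 0.34) and *IGF2R* (12.2 ± 0.097) were close to each other, and *IRS1* (3.73 ± 0.17) and *IGF1R* (2.18 ± 0.13 CPM per kb) were lowest. Across the 12 libraries *IGFBP3* spanned the widest range, 22.6-fold from lowest to highest, against 6.52-fold for *IGFBP7* and 1.78-fold for *IGF2R*.

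**Figure D1:**
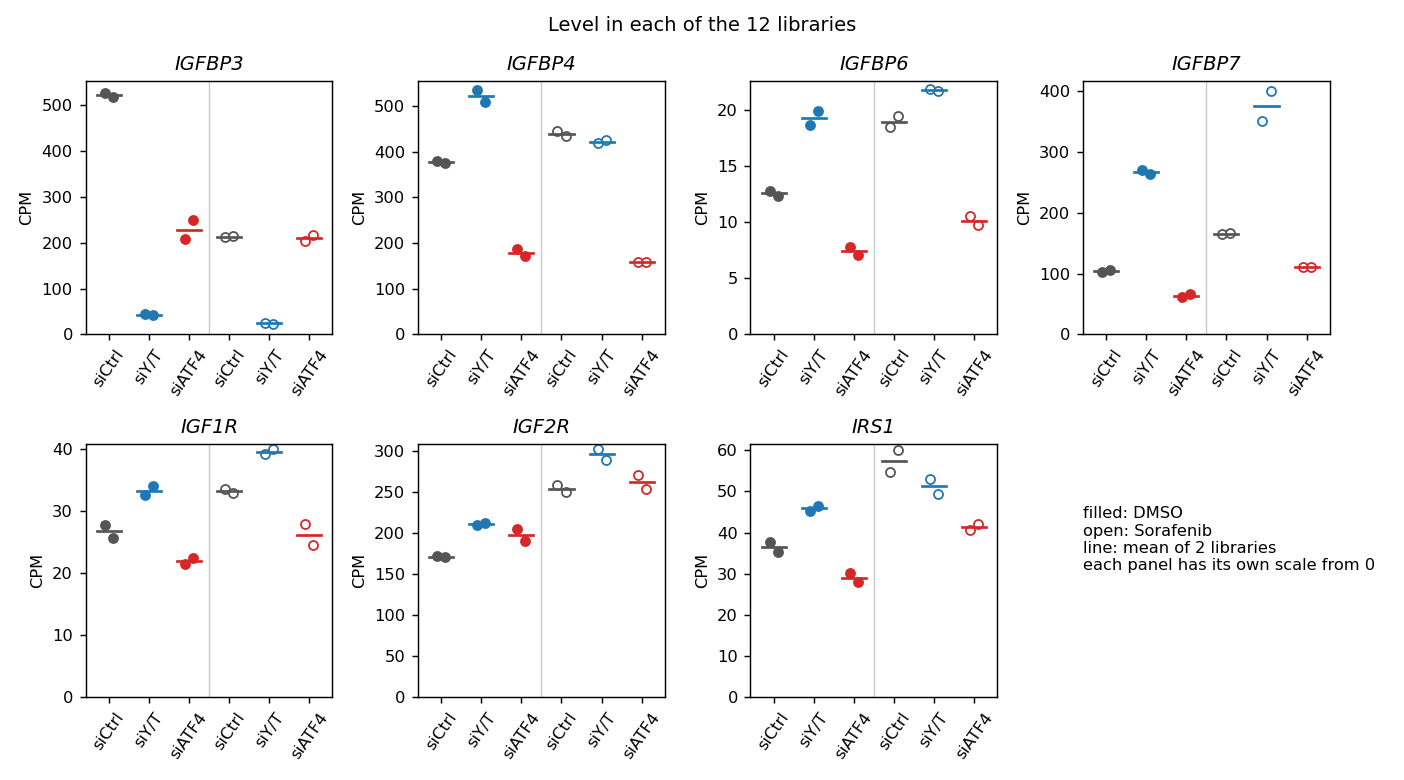
Level of the 7 measured members in each library, in CPM on a linear axis that starts at 0 in each panel. Points are single libraries, filled for DMSO and open for Sorafenib, and lines are means of 2. *IGFBP3* is lowest in the siY/T libraries, at 23.3 to 44.3 CPM, whereas *IGFBP4*, *IGFBP6* and *IGFBP7* are lowest in siATF4 libraries of the same treatment.

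The 250 bases before the annotated start are shown for *IGFBP3*, *IGFBP4* and *IGFBP6*, the measured binding proteins that had a window. No window was found for *IGFBP7* or *IGFBP1*. The sequences are the RefSeq windows of GRCh38.p14, written 5′ to 3′ on the strand of the gene, with matches to the searched motifs in capitals.
IGFBP3 (chr7:45921273-45921522, minus strand): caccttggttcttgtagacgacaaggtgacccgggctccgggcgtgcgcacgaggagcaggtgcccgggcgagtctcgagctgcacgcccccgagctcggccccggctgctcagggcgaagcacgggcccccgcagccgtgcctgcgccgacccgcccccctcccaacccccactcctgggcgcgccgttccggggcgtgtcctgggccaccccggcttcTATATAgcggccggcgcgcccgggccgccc
IGFBP4 (chr17:40443200-40443449, plus strand): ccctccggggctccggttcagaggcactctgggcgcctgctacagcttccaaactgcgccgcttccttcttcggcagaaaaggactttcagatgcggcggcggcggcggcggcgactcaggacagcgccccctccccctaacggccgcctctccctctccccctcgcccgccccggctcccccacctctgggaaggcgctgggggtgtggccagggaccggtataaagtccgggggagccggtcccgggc
IGFBP6 (chr12:53097417-53097666, plus strand): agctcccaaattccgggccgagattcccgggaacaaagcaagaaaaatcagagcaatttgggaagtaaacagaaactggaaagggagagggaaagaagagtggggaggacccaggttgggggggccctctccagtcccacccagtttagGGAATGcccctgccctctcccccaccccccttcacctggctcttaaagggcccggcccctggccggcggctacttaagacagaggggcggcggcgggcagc
Both strands were searched for a TEAD motif (GGAATG), an element bound by ATF4 with C/EBP partners (TGATGNAA), an AP-1 element (TGANTCA) and a TATA-like run (TATATA), with no overlap among the matches found. These letters occur in 11.9%, 3.14%, 6.57% and 3.73% of the 35116 RefSeq windows of this length. Of the 10 genes, 8 had a window and 3 of them held the TEAD letters, *IGFBP5* at -235, *IGFBP6* at -101 and *IRS1* at -33 from the start. The capitals in *IGFBP6* mark that match, and those in *IGFBP3* mark the TATA-like run at -30. Only TATATA was searched as such a run, so the letters tataaa near the end of the *IGFBP4* window are not marked. The ATF4 and AP-1 letters were found in 0 of 8. A match is a description of the letters, not a site in use.

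To see how YAP/TAZ loss moved the family, siY/T was set beside siCtrl. *IGFBP3* (chromosome 7, 45951844 to 45961473, minus strand, GRCh37), a major carrier of IGFs in blood, had 528 and 518 CPM in the siCtrl DMSO libraries, whereas siY/T lay at 44.3 and 42.0 CPM. With Sorafenib it was at 212 and 214 CPM in siCtrl and 25.8 and 23.3 CPM in siY/T cells. The siY/T libraries were thus at 8.24% of siCtrl in DMSO and 11.5% in Sorafenib, with no overlap. These are the values that chose the set. In such bulk samples fewer cells that express a gene and less RNA per cell cannot be told apart.

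The low level was not shared by the other binding proteins. *IGFBP7* (chromosome 4, 57896939 to 57976551, minus strand) was at 103 and 107 CPM in siCtrl and 271 and 263 CPM in siY/T cells in DMSO, and at 165 and 166 against 350 and 400 CPM in Sorafenib. It was the member with the highest ratio of siY/T to siCtrl, 2.55-fold in DMSO and 2.27-fold in Sorafenib. *IGFBP6* (chromosome 12, 53491220 to 53496129, plus strand) was at 12.8 and 12.4 CPM against 18.7 and 20.0 CPM in DMSO, and at 18.5 and 19.5 against 21.9 and 21.7 CPM in Sorafenib. *IGFBP4* (chromosome 17, 38599702 to 38613977, plus strand) was at 379 and 376 CPM against 536 and 509 CPM in DMSO, whereas in Sorafenib its order was the other way, with 444 and 434 CPM in siCtrl and 419 and 426 CPM in siY/T cells.

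On the log2(CPM + 0.5) scale, the differences between siY/T and siCtrl in DMSO were 1.35 for *IGFBP7* (SE 0.058), 0.60 for *IGFBP6* (SE 0.072) and 0.47 for *IGFBP4* (SE 0.044). In Sorafenib they were 1.18, 0.19 and -0.06. *IGFBP3* differed by -3.09 (SE 0.072) in Sorafenib. The receptors and the substrate differed less, with 0.31 for *IGF1R*, 0.30 for *IGF2R* and 0.33 for *IRS1* in DMSO and 0.25, 0.22 and -0.16 in Sorafenib. By size alone, with no test, *IGFBP3* was lower and *IGFBP6* and *IGFBP7* were higher in DMSO by at least 0.58 on the log2 scale, a size that 3.62% and 11.0% of all genes reached in those directions. Over all genes that is 489 lower and 1485 higher, against 789 and 1044 with quantile normalization. The median log2 difference over all genes tested was 0.069 in DMSO. *IGFBP6* fell under 0.58 in some alternatives, with a range of 0.461 to 0.616, and of 0.555 to 0.646 without any 1 library. In Sorafenib *IGFBP3* was lower and *IGFBP7* higher by that size, beside 3.85% and 6.11% of all genes. Nothing is read from these counts, since *IGFBP3* chose the set. *IGFBP7* shares exonic bases with *POLR2B* on the other strand, which was at 196 to 255 CPM and differed by -0.23 (SE 0.047) in DMSO and 0.09 in Sorafenib. The 2 genes overlap only between 57896939 and 57897324 (GRCh37). The study's methods name a stranded library kit, but the strand setting of the counting is not given in the sources used here. Whether reads of the 2 genes in the shared bases were kept apart is therefore not known.

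To see how ATF4 loss moved the same genes, siATF4 was compared with siCtrl, whose libraries are those used above. A change was called at a Benjamini-Hochberg adjusted p under 0.05 in limma and an absolute log2 difference of at least 0.58. In DMSO all 4 measured binding proteins fell. *IGFBP3* was at 209 and 249 CPM in siATF4 against 528 and 518 CPM in siCtrl cells, a fall to 43.8% (log2 -1.20, SE 0.072, limma adjusted p = 1.16e-08). *IGFBP4* was at 187 and 172 against 379 and 376 CPM, a fall to 47.5% (log2 -1.07, SE 0.044, limma adjusted p = 3.42e-10). IGFBP4 is the binding protein best known as a substrate of PAPPA. *IGFBP6* was at 7.84 and 7.09 against 12.8 and 12.4 CPM (log2 -0.72, SE 0.072, limma adjusted p = 1.44e-06), and *IGFBP7* at 61.3 and 66.3 against 103 and 107 CPM (log2 -0.71, SE 0.058, limma adjusted p = 2.01e-07). No siATF4 library overlapped a siCtrl library in any of the 4, but the share of all genes without such overlap was not counted.

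The receptors and *IRS1* did not pass the minimum change. *IGF1R* (chromosome 15, 99191768 to 99507759) was at 21.4 and 22.3 CPM in siATF4 and 27.8 and 25.6 CPM in siCtrl cells (log2 -0.28, SE 0.067), and *IRS1* (chromosome 2, 227596028 to 227664536) at 30.2 and 27.9 against 37.6 and 35.3 CPM (log2 -0.32, SE 0.063). *IGF2R* (chromosome 6, 160390114 to 160534539) was the only member of the 7 with a positive difference, 205 and 191 against 172 and 171 CPM (log2 0.21, SE 0.047). Their limma adjusted p were 0.00235, 0.000522 and 0.00163, so they missed the call by size alone. In all, 4 of the 7 were lowered and 0 raised, where 14.1% and 8.56% of all genes were called lowered and raised. The median log2 difference of the 7 was -0.71 beside -0.0013 over all genes tested.

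In Sorafenib, siATF4 left a different order. *IGFBP4* was at 158 and 159 CPM in siATF4 against 444 and 434 CPM in siCtrl cells, a fall to 36.1% (log2 -1.47, SE 0.044, limma adjusted p = 3.00e-11). *IGFBP6* was at 10.6 and 9.76 against 18.5 and 19.5 CPM (log2 -0.87, SE 0.072, limma adjusted p = 1.67e-07). *IGFBP7* was at 111 and 112 against 165 and 166 CPM, and its log2 difference of -0.57 (SE 0.058, limma adjusted p = 1.16e-06) lay just under the minimum change, which it passed with quantile normalization (-0.606). *IGFBP3*, by contrast, was at 204 and 217 CPM in siATF4 and 212 and 214 CPM in siCtrl cells, so that the groups overlapped (log2 -0.02, SE 0.072, limma adjusted p = 0.821).

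The receptors and *IRS1* again did not pass the minimum change in Sorafenib. *IGF1R* was at 27.8 and 24.4 against 33.5 and 32.9 CPM (log2 -0.34), *IRS1* at 40.6 and 42.2 against 54.6 and 60.0 CPM (log2 -0.46), and *IGF2R* at 271 and 254 against 259 and 250 CPM (log2 0.04, limma adjusted p = 0.427). In all, 2 of the 7 were lowered and 0 raised in Sorafenib, beside 18.7% and 10.3% of all genes. Over all genes that is 2525 lowered and 1386 raised, against 2024 and 1903 with quantile normalization. With no minimum change 5 of the 7 passed in Sorafenib, beside 73.2% of all genes, and 7 of 7 in DMSO, beside 67.9%.

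**Figure D2:**
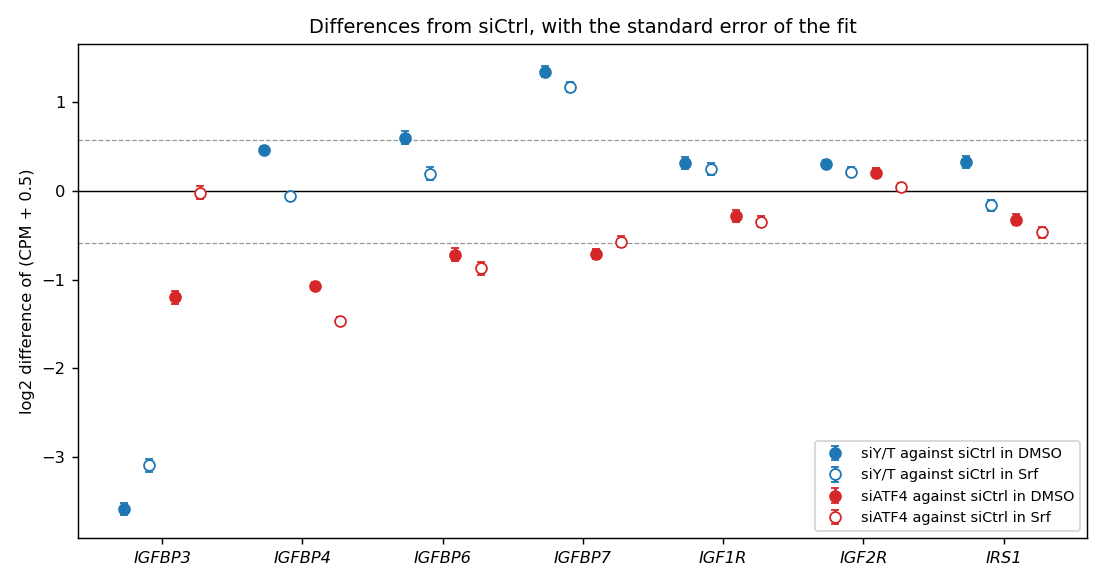
Log2 difference from siCtrl of each measured member (vertical axis, log2 of CPM + 0.5), with the standard error of the fit, for siY/T (blue) and siATF4 (red) in DMSO (filled) and Sorafenib (open). Dashed lines mark the minimum change of 0.58. *IGFBP4* in DMSO, *IGFBP6* and *IGFBP7* lie above 0 with siY/T and below 0 with siATF4, and *IGFBP3* lies at -0.02 with siATF4 in Sorafenib.

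Whether the siATF4 effect differed between Sorafenib and DMSO was tested directly. For *IGFBP3* the effect in Sorafenib minus that in DMSO was 1.18 (SE 0.10, limma adjusted p = 3.84e-06), and for *IGFBP4* it was -0.39 (SE 0.063, limma adjusted p = 0.000343). The *IGFBP3* effect was therefore smaller in Sorafenib and the *IGFBP4* effect larger. These 2 of the 7 members passed, beside 41.1% of all genes. The other 5 had differences between -0.16 (*IGF2R*, limma adjusted p = 0.0653) and 0.14 (*IGFBP7*, limma adjusted p = 0.192) and did not pass.

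The same contrast can be read from the response to Sorafenib. In siCtrl cells *IGFBP3* fell with Sorafenib from 528 and 518 to 212 and 214 CPM, to 40.8% (log2 -1.29, SE 0.072, limma adjusted p = 1.71e-08). In siATF4 cells, which had 209 and 249 CPM, it stood at 204 and 217 CPM with the drug (log2 -0.12, SE 0.072, limma adjusted p = 0.197). In siY/T cells it was at 44.3 and 42.0 CPM without and 25.8 and 23.3 CPM with Sorafenib (log2 -0.80, SE 0.072), given without a test. By level, siATF4 DMSO, siCtrl Srf and siATF4 Srf cells could not be put in order for *IGFBP3*, since neighbouring groups overlapped, while siCtrl DMSO stood above them and both siY/T groups below.

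The other members went up with the drug in siCtrl cells or missed the call. *IGFBP7* rose 1.58-fold (log2 0.66, SE 0.058, limma adjusted p = 6.52e-07) and *IRS1* 1.57-fold (log2 0.64, SE 0.063, limma adjusted p = 1.65e-06). *IGFBP6* (log2 0.575, SE 0.072, limma adjusted p = 1.52e-05) and *IGF2R* (log2 0.568, SE 0.047, limma adjusted p = 4.11e-07) lay just under the minimum change. *IGF1R* (log2 0.31) and *IGFBP4* (log2 0.22) differed less. Thus 1 of the 7 was lowered and 2 were raised in siCtrl cells, beside 5.15% and 12.3% of all genes. Over all genes that is 696 lowered and 1665 raised, against 1025 and 1125 with quantile normalization. With no minimum change 7 of 7 passed, beside 63.2% of all genes. The call of *IRS1* rests on its second siCtrl Srf library, since its log2 difference without that library was 0.577, whereas *IGF2R* passed without the same library (0.591) and *IGFBP6* without the first siCtrl DMSO (0.6) or Srf library (0.612).

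In siATF4 cells *IGFBP7* rose 1.74-fold with Sorafenib (log2 0.80, SE 0.058, limma adjusted p = 3.11e-07). It was the 1 member raised and 0 were lowered, beside 5.68% and 2.94% of all genes. *IRS1* (log2 0.50), *IGFBP6* (log2 0.42), *IGF2R* (log2 0.40) and *IGF1R* (log2 0.25) had differences of the same sign as in siCtrl cells without passing the minimum change. *IGFBP4* had 0.22 in siCtrl and -0.17 in siATF4 cells. In siY/T cells, where no test was made, the values were 0.49 for *IGFBP7*, 0.48 for *IGF2R*, 0.25 for *IGF1R*, 0.17 for *IGFBP6*, 0.16 for *IRS1* and -0.31 for *IGFBP4*.

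Set side by side, siY/T and siATF4 cells differed in their makeup of binding protein transcripts. In siY/T against siATF4 cells in DMSO, *IGFBP7* was 4.18-fold, *IGFBP4* 2.91-fold and *IGFBP6* 2.59-fold higher, and *IGFBP3* was 5.31-fold lower. In Sorafenib the ratios were 3.37, 2.66 and 2.14 for the first 3, and *IGFBP3* was 8.56-fold lower. No library of one group overlapped the other in these 4 genes, and here too the share of all genes was not counted.

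The sum of the 4 binding proteins per kilobase was 458 ± 2.2 CPM per kb in siCtrl DMSO and 461 ± 12.3 in siY/T DMSO cells (SD, n = 2), although *IGFBP3* made up 43.7% of it in the former and 3.58% in the latter. In siY/T DMSO cells *IGFBP4* took 51.4% and *IGFBP7* 40.6%. In siATF4 DMSO cells the sum was 222 ± 8.2 CPM per kb, and *IGFBP3* still took 39.5%, close to its share in siCtrl cells. With Sorafenib the sums were 417 ± 1.3 in siCtrl, 487 ± 25.9 in siY/T and 241 ± 3.5 CPM per kb in siATF4 cells, with *IGFBP3* at 19.6%, 1.94% and 33.4%. The siY/T sums overlapped those of siCtrl in DMSO, and the siATF4 sums lay under all others. They are sums over members that were chosen with results known and are given without a test.

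**Figure D3:**
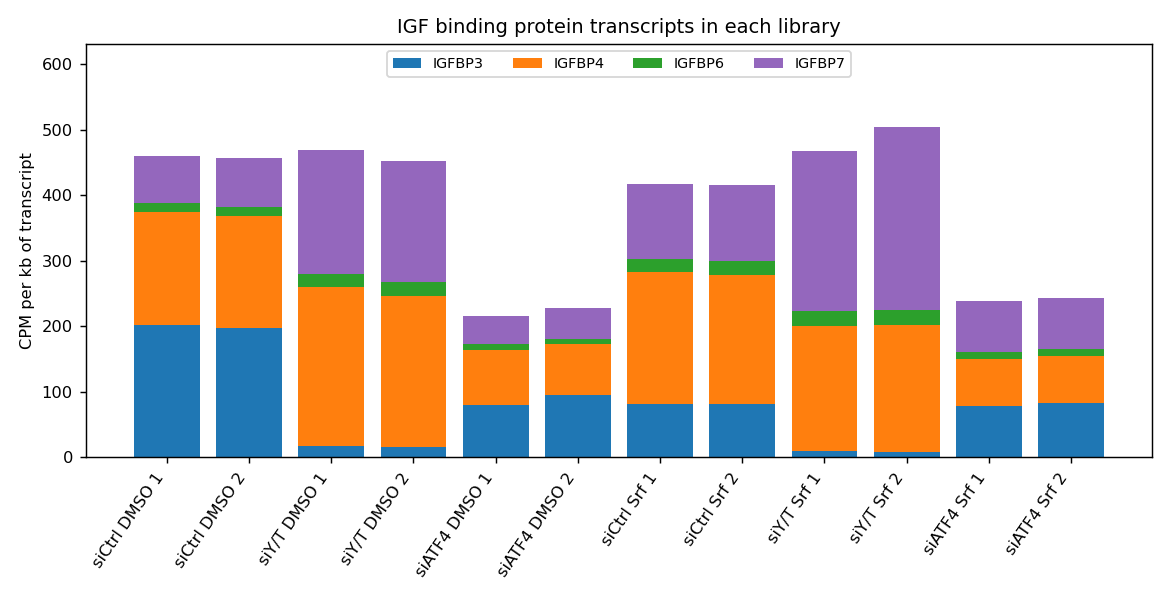
Summed level of the 4 measured IGF binding proteins in each of the 12 libraries, in CPM per kb of transcript, stacked by gene. The bars of siCtrl and siY/T libraries reach 416 to 505 and those of siATF4 libraries 216 to 244 CPM per kb, and the *IGFBP3* segment is smallest in siY/T libraries.

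The genes whose pattern over the 12 libraries was most like *IGFBP3*, by Pearson's r of log2(CPM + 0.5) among 11151 genes, were *HERC4* (r = 0.987), *VTI1B* (0.976), *RAB3B* (0.974), *NEDD4L* (0.969) and *FKBP4* (0.967). *HERC4* was at a mean of 328 CPM in siCtrl DMSO, 143 in siY/T DMSO and 257 CPM in siATF4 DMSO cells, a flatter course than that of *IGFBP3*. Most like *IGFBP4* were *PTMS* (r = 0.995), *SGPL1* (0.993), *MEIS3* (0.992), *CYTH2* (0.992) and *CYB5R3* (0.992). The libraries come from 6 groups of 2 and differ in depth, so these values describe likeness only.

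The wider IGF axis was followed through 36 other ligands, carriers, receptors, substrates, proteases and downstream kinases, of which 26 were tested. With siATF4, 7 were lowered and 1 raised in DMSO and 9 were lowered and 1 raised in Sorafenib, where 14.1% and 8.56% of all genes were called in DMSO and 18.7% and 10.3% in Sorafenib. Their median log2 difference was -0.11 in DMSO and -0.18 in Sorafenib. With siY/T, 1 was lower and 6 were higher in DMSO by size alone, beside 3.62% and 11.0% of all genes, and 2 were lower and 3 higher in Sorafenib, beside 3.85% and 6.11%. With Sorafenib 2 were lowered and 5 raised in siCtrl cells, beside 5.15% and 12.3%, and 3 were lowered and 1 raised in siATF4 cells, beside 2.94% and 5.68%. The siATF4 effect differed between Sorafenib and DMSO for 9 of the 26, with 41.1% as the share of all genes. Nothing particular to the axis is read from these counts.

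Among the ligands, *IGF1* had 1 read in all libraries and *INS* had 0. *IGF2* was low but present, at 0.615 and 1.11 CPM in siCtrl, 1.76 and 2.13 CPM in siY/T and 0.0429 and 0.0396 CPM in siATF4 cells in DMSO. The siATF4 DMSO values are under the 3 reads that a count of 0 allows. In Sorafenib *IGF2* was at 2.14 and 2.18 CPM in siCtrl, 4.73 and 5.28 CPM in siY/T and 0.209 and 0.278 CPM in siATF4 cells. With siATF4 it fell in both treatments (log2 -1.31 in DMSO, limma adjusted p = 7.96e-06, and -1.84 in Sorafenib, limma adjusted p = 2.35e-07), on a scale where the added 0.5 CPM sets the size of the difference at such low levels.

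The receptors outside the set included *INSR*, the insulin receptor, which fell with siATF4 from 24.7 and 26.0 to 15.7 and 15.8 CPM in DMSO (log2 -0.67, SE 0.060, limma adjusted p = 5.29e-07). *LRP1*, an endocytic receptor reported to bind IGFBP3, was at 156 and 147 CPM in siCtrl, 295 and 314 CPM in siY/T and 46.8 and 40.4 CPM in siATF4 DMSO cells. Its fall with siATF4 was 1.79 on the log2 scale in DMSO (SE 0.063, limma adjusted p = 8.24e-11) and similar in size in Sorafenib (log2 -1.82). *PIK3CB*, a catalytic subunit of phosphatidylinositol 3-kinase, fell by 1.61 and 1.62 on the log2 scale (limma adjusted p = 5.62e-10 and 3.69e-10), from 65.2 and 61.6 to 20.1 and 20.8 CPM in DMSO.

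Of the proteases and their inhibitors, *PAPPA*, which cleaves IGFBP4, was at 74.6 and 73.9 CPM in siCtrl but 28.6 and 29.9 CPM with siY/T in DMSO (log2 -1.33), and differed by -0.34 with siATF4. *STC1*, a stanniocalcin that inhibits PAPPA, was the axis gene raised by siATF4, from 17.9 and 17.9 to 137 and 111 CPM in DMSO (log2 2.75, SE 0.13, limma adjusted p = 1.22e-09) and by 2.01 in Sorafenib. *STC2*, its relative and also a PAPPA inhibitor, went the other way in Sorafenib, from 58.0 and 64.6 to 33.2 and 33.7 CPM (log2 -0.86, limma adjusted p = 0.000104), and its effect in Sorafenib minus DMSO was -1.42 (limma adjusted p = 0.000137). With siY/T in Sorafenib *STC2* was at 25.1 and 18.7 CPM (log2 -1.48). Downstream, *FOXO4*, a transcription factor held back by AKT, was higher with siY/T in DMSO (log2 1.16) and *GRB14*, an adaptor that dampens insulin receptor signals, in Sorafenib (log2 0.84).

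**Figure D4:**
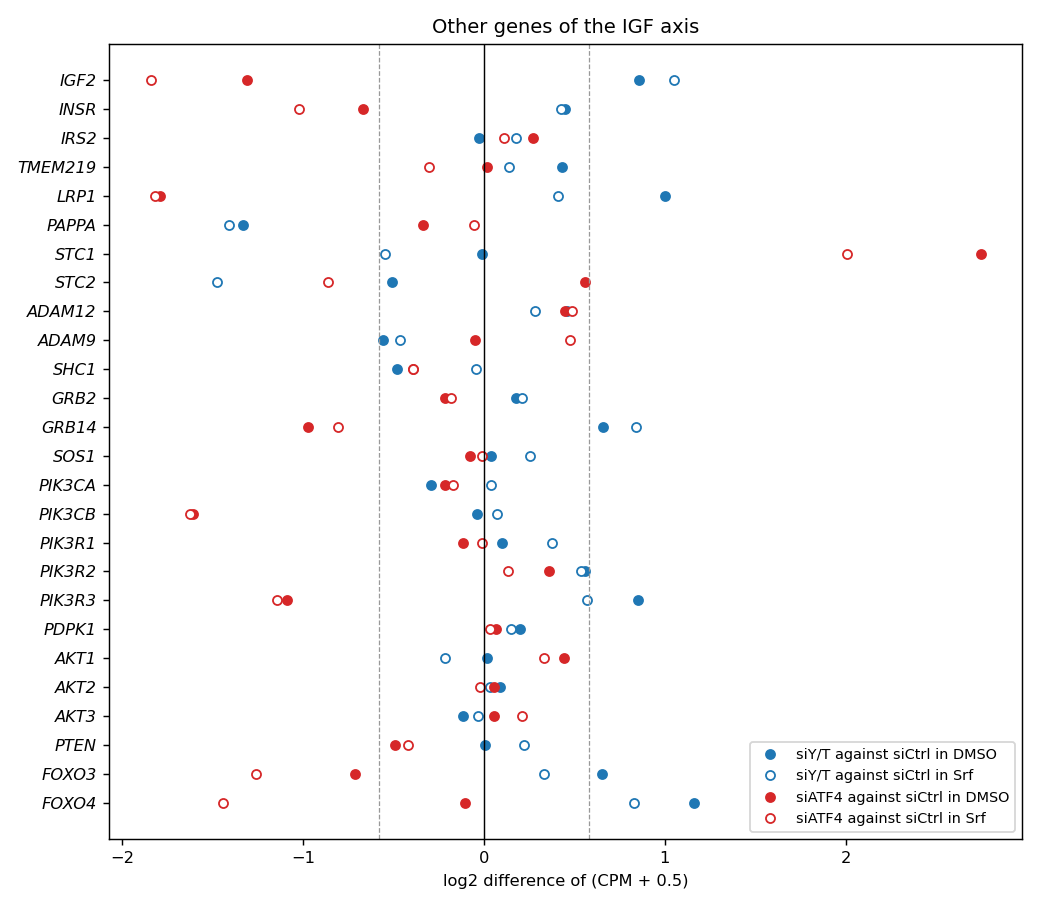
Log2 difference from siCtrl (horizontal axis, log2 of CPM + 0.5) of the 26 tested genes of the wider IGF axis, for siY/T (blue) and siATF4 (red) in DMSO (filled) and Sorafenib (open). Dashed lines mark 0.58. *LRP1* lies at -1.79 and -1.82 and *PIK3CB* at -1.61 and -1.62 with siATF4, and *STC1* lies at 2.75 and 2.01.

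The CCN genes, once grouped with the binding proteins for a shared domain, include *CCN1* and *CCN2*, widely used targets of YAP/TAZ. With siY/T in DMSO they were at 77.5 and 74.0 against 285 and 292 CPM and at 7.47 and 7.85 against 33.7 and 32.5 CPM, lower as *IGFBP3* was, whereas *CCN5* was higher, at 15.7 and 13.3 against 7.59 and 7.57 CPM. With siATF4, however, *CCN1* rose by 0.79 in DMSO (limma adjusted p = 5.16e-07) and *CCN2* by 1.71 (limma adjusted p = 1.56e-09) on the log2 scale, while *IGFBP3* fell. *CCN5* fell with siATF4 (log2 -2.37 in DMSO, limma adjusted p = 8.62e-10), and *CCN3*, *CCN4* and *CCN6* were too low to be tested. *WWTR1* itself was lower with siATF4 in DMSO (log2 -0.70, limma adjusted p = 1.29e-05) and differed by -0.09 in Sorafenib, the treatment in which the *IGFBP3* values of siATF4 and siCtrl overlapped. The part of *WWTR1* in the *IGFBP3* values was not tested.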

How the data were processed

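Reads of poly(A) RNA were mapped by the authors with STAR (hg19, unique hits only). The authors used QuasR to count reads on RefSeq mRNA exons and deposited 1 table of CPM for 26258 identifiers. All CPM values were whole multiples of 1 read (0.0186 to 0.0241 CPM) within 0.001 read, so 100% came out whole. The RefSeq table of GRCh38.p14 named 26111 identifiers. Positions and MANE Select transcript lengths came from GENCODE on GRCh37.

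Genes that reached 1 CPM in 2 or more of the 12 libraries entered a two-sided limma fit (version 3.58.1, R 4.3.3) of log2(CPM + 0.5) on the 6 groups, with the variance allowed to follow the mean. A call needed an adjusted p under 0.05 over 13515 genes and an absolute log2 difference of at least 0.58, and a difference between effects the adjusted p alone. Counts for siY/T use the size alone. The labels do not say that libraries are separate cultures, and the methods of the study speak of biological triplicates, whereas 2 libraries per group are analysed here. If the libraries are not separate cultures, p-values measure only their spread, which may be technical. The study's text gives a slightly higher Sorafenib dose than the 5 µM of the labels, which are followed here. An exact permutation test of 2 against 2 cannot go below 0.333 and was not used.

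The members and lists were chosen with earlier results of these data known. All 10 members are named, and of the wider axis up to 4 genes with the largest differences among those called in each siRNA comparison, with the CCN genes and the siRNA targets. *INSR*, *POLR2B*, the values of single cell type markers and the siATF4 values of *PAPPA* and *STC2* were added after their values were seen. The 5 genes most like *IGFBP3* and *IGFBP4* were sought among genes averaging 5 CPM or more. Alternatives were other pseudocounts (0.1 and 1), filters, TMM and quantile scaling, the replicate number as a block, edgeR 4.0.16 and DESeq2 1.42.0 on the recovered reads, other call rules and leaving out each library. In simulated reads of 13217 genes for siATF4 against siCtrl in Sorafenib, limma recovered 200 of 200 changed genes with 0 wrong calls. The planted changes were all of the same size, well past the minimum change, and the spread was fixed. The simulation therefore checks only that the code runs as meant and says nothing of calls near the minimum change. Figures were drawn with matplotlib 3.10.9 in Python 3.11.15.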

Additional observations from a re-analysis of the deposited data

Results flagged for a closer look

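The effect of siATF4 differed between Sorafenib and DMSO for 2 members, by the interaction term of the limma fit. For *IGFBP3* the log2 effect in Sorafenib minus that in DMSO was 1.18, the effects being -0.02 and -1.20. For *IGFBP4* the difference was -0.391, from effects of -1.47 and -1.07. Without any 1 library the first stayed between 1.05 and 1.3 and the second between -0.449 and -0.333. Such differences passed for 41.1% of all genes tested. With 2 libraries in each group, no group was large enough for a test of single libraries that stand apart.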

How the results depend on the processing

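Members called with siATF4 numbered 4 in DMSO and 2 in Sorafenib, and with Sorafenib in siCtrl cells 3. With an adjusted p under 0.05 and no minimum change they numbered 7, 5 and 7, beside 67.9%, 73.2% and 63.2% of all genes, since the added members differed by less than 0.58. Without any 1 library the counts were 4 to 4, 2 to 2 and 3 to 4. On the recovered reads, edgeR called 1355 genes raised and 2131 lowered with siATF4 in DMSO, 1595 and 2693 in Sorafenib, and 1795 and 882 with Sorafenib in siCtrl cells. With the replicate number as a block the members called were 4, 2 and 3, but the labels do not say whether equal numbers pair libraries. Over 15 pairs of groups the correlation of the deviations of their libraries ran from -0.282 to 0.193 and was over 0.1 in 4. Within a treatment it ran from 0.0358 to 0.193, and between treatments from -0.282 to 0.0054. These values do not settle whether the numbers pair libraries within a treatment. The difference between siATF4 effects for *IGF2R* passed with the block (-0.165, limma adjusted p = 0.0436), with quantile normalization (-0.254), and without the second siATF4 DMSO (-0.217), the first siATF4 Srf or either siY/T DMSO library.

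Of 770 values of single members with a test under 22 alternatives, 751 kept their direction and their side of the threshold, 13 newly passed, 1 no longer passed (*IRS1* with Sorafenib in siCtrl cells) and 5 changed sign. Without 1 library *IGFBP3* with siATF4 in Sorafenib ran from -0.065 to 0.0261 and with Sorafenib in siATF4 cells from -0.244 to 0.0116, *IGF2R* with siATF4 in Sorafenib from -0.00532 to 0.0915, and the difference between siATF4 effects for *IGF1R* from -0.156 to 0.0284. Quantile normalization gave -0.0293 for *IGF2R* with siATF4 in Sorafenib, and the cause was not tested. Of 308 descriptive values of siY/T, 278 moved by no more than the standard error of the main fit and 0 changed sign. The alternatives for Sorafenib in siATF4 cells were chosen after seeing the data. Depth limits *IGFBP1*, *IGFBP2*, *IGFBP5* and *IGF2* in siATF4 DMSO cells.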
